A study of Mus musculus with 6 samples.

Results

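The mitochondrial fission, fusion and mitophagy genes examined here are 10 genes that control how mitochondria join, divide and are cleared: Mfn1, Mfn2, Opa1, Dnm1l, Fis1, Mff, Oma1, Yme1l1, Pink1 and Bnip3. They were chosen by name, and each gene was read from the brightest probe set, by the mean of 6 arrays, among those whose annotation names that gene alone. All 10 had such a probe set, out of 19938 genes measured in this way. The cells were C2C12 cells, a mouse myoblast line, in which PARP2 had been silenced with a lentiviral PARP2-specific shRNA (shPARP2), and their counterpart, which carried a scrambled sequence instead (scPARP2). Each line was measured on 3 arrays, with 1 sample to an array. Both lines had been exposed to lentivirus and kept under puromycin selection. As each condition is represented by 1 cell line, the silencing and other differences between the lines cannot be told apart. Whether the 3 samples came from separate cultures is not stated in the sources used here, and the p-values may then reflect technical spread alone.

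Mitochondria form a network that fuses and divides continuously. The mitofusins MFN1 and MFN2, which are GTPases of the outer membrane, tether and fuse neighbouring organelles, while OPA1 fuses the inner membrane and keeps the cristae in shape. Division is carried out by the dynamin DRP1, the product of Dnm1l, which is recruited from the cytosol by outer membrane proteins and constricts the organelle. Damaged or surplus pieces are removed by mitophagy, which in muscle goes along with the rebuilding of the network when myoblasts differentiate.

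In shPARP2 C2C12 cells Mfn1 fell, whereas Mfn2, Dnm1l and Yme1l1 rose, and the other 6 genes did not pass the test. Mfn1 had a log2 fold change of -0.80, which left 57.6% of the signal of scPARP2 cells. Dnm1l and Mfn2 changed by 1.42-fold and 1.40-fold, and Yme1l1 by 1.21-fold. The call was an adjusted p under 0.05 from limma, corrected by the Benjamini-Hochberg method across the 35556 probe sets of the array. By the same call 3 of the 10 genes rose and 1 fell, against 12.4% and 11.6% of all genes (24.0% in either direction). The median log2 fold change of the 10 genes was 0.03, and that of all genes was -0.02. Variability was larger in shPARP2 cells, where the median SD over probe sets was 0.142 against 0.0753 in scPARP2 cells, and the SD was larger in shPARP2 cells for 9 of the 10 genes, as for 15636 of all 19938 genes. The signal of Parp2 itself averaged 7.97 ± 0.15 in shPARP2 and 9.04 ± 0.10 in scPARP2 cells (SD, n = 3 arrays each), and its log2 fold change was -1.07 (adjusted p = 0.00103 from limma).

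**Figure D1:**
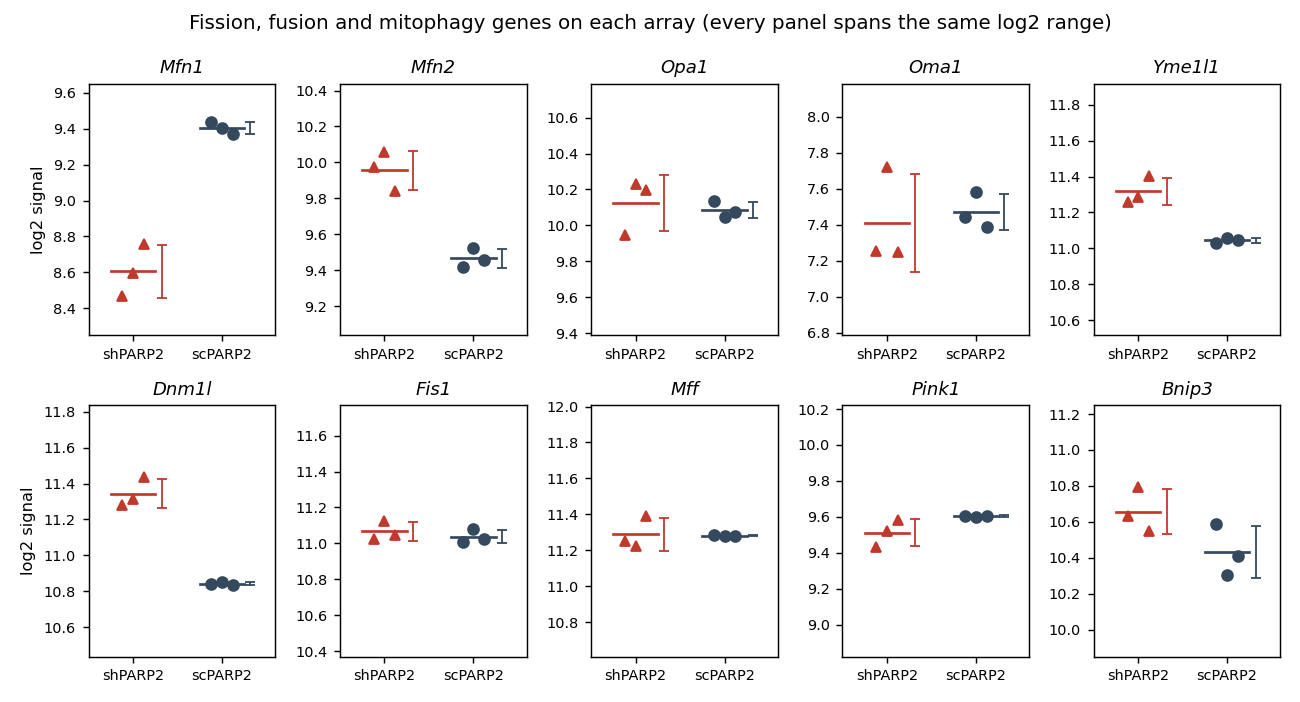
Log2 signal (vertical axis) of the 10 genes on each of the 6 arrays, with shPARP2 arrays as triangles and scPARP2 arrays as circles; horizontal lines are means of 3 arrays and bars beside them are ± 1 SD. The lines do not overlap for 5 genes (Mfn1, Mfn2, Yme1l1, Dnm1l and Pink1), as for 42.1% of all genes, and the gap is widest for Mfn1.

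To show the regulatory sequence next to the genes that changed, the bases upstream of 3 of them were taken from RefSeq (GRCm38.p6). The set was chosen to place the mitofusins, which moved in opposite directions, beside Dnm1l. Mfn1 lies on the + strand of chromosome 3 (printed stretch chr3:32529232-32529442), Mfn2 on the - strand of chromosome 4 (chr4:147904910-147905159) and Dnm1l on the - strand of chromosome 16 (chr16:16359039-16359281). Each stretch is given 5′ to 3′ along the strand of the gene and ends where the annotated gene begins. The start site from which the motif positions are counted lies 39 bases beyond the printed end in Mfn1, 7 bases beyond it in Dnm1l and directly after it in Mfn2. Capitals mark CCAAT on either strand. The upstream window of Yme1l1 lies within its annotated gene and is not printed.
Mfn1: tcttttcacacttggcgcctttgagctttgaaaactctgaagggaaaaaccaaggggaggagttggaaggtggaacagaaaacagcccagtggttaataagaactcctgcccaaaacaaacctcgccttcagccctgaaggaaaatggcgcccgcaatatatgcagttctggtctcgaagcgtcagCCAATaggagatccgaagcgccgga
Mfn2: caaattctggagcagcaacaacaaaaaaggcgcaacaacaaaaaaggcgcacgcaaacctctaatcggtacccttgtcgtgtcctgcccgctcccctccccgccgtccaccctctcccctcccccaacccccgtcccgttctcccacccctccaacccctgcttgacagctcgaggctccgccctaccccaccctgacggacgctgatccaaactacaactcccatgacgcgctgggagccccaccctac
Dnm1l: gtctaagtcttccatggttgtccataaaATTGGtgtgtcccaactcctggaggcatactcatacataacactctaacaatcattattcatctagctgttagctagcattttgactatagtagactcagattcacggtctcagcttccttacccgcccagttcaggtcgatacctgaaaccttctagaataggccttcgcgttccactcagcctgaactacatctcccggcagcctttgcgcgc

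In the 250 bases before the start site, 6 motifs were searched on both strands in all 10 genes. CCAAT, the box bound by NF-Y, was found in the windows of 7 of the 10 genes (Mfn1, Opa1, Dnm1l, Fis1, Mff, Yme1l1 and Bnip3), and 34.5% of 27025 windows of the same length hold it. The windows were not matched for base composition. The median count of CG was 6 over all windows, and the 10 genes had 8 to 24. In Mfn1 it starts 64 bases before the start site and in Dnm1l, on the other strand, 222 bases before it. Mfn2 had no match to any of the 6 motifs in the window searched. It has 3 start sites, and Dnm1l, Fis1 and Mff have 2 each, but only the window of the site nearest the 5′ end was searched. The consensus motif of nuclear respiratory factor 1 was found upstream of Opa1 (0.777% of all windows), and the E-box CACGTG upstream of Bnip3 (6.04% of all windows). None of the 10 windows held TGACNNNGC, the core of the antioxidant response element to which NRF2 binds (10.1% of all windows), AAGGTCA, the estrogen-related receptor half-site (4.04%), or TGACGTCA, the cyclic AMP response element (1.6%). The matches did not overlap each other. A match describes the letters of the window and is not evidence of binding. Nor is the lack of a match evidence against binding, since sequence outside the window was not searched. A motif held by 10.1% of all windows or fewer can also be missing from 10 windows by chance.

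The mitofusins, which act together on the outer membrane, changed in opposite directions. Mfn1 read 8.47, 8.60 and 8.76 on the log2 scale in shPARP2 cells, against 9.44, 9.40 and 9.37 in scPARP2 cells. Every shPARP2 array was lower than every scPARP2 array, by more than the whole range of either line (0.295 in shPARP2 and 0.0657 in scPARP2 cells). The log2 fold change was -0.80 (standard error 0.09, 95% confidence interval -1.01 to -0.58, adjusted p = 0.00204 from limma), and by the size of its change Mfn1 ranked 1140 among the 19938 genes. It was also the 1 gene of the 10 that passed the test with a change of at least 1.5-fold, a combination that 10.1% of all genes reached. Mfn2, which in addition tethers mitochondria to the endoplasmic reticulum, read 9.97, 10.06 and 9.84 in shPARP2 cells, against 9.42, 9.52 and 9.46 in scPARP2 cells. Here every shPARP2 array was higher. The log2 fold change of Mfn2 was 0.49 (standard error 0.08, 95% confidence interval 0.30 to 0.68, adjusted p = 0.00773 from limma).

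The difference between the changes of the mitofusins was 1.29 on the log2 scale (Mfn2 minus Mfn1), so the ratio of their signals was shifted 2.44-fold in favour of Mfn2 in shPARP2 cells. An exact two-sided permutation test over the 6 arrays gave p = 0.1 for this difference (n = 3 arrays per line), which is the smallest value that 3 arrays against 3 can give. Each mitofusin already separated the lines, in opposite directions, so this outcome was fixed beforehand and adds no further evidence. Over the 6 arrays, the genes whose pattern was most like that of Mfn1 were Glcci1, Washc2 and Trp53inp1, a stress protein induced by p53, with a Pearson r of 0.9998, 0.9994 and 0.9990. Their log2 fold changes were -0.86, -0.38 and -0.94. These correlations rest on 6 arrays of both lines, and 1235 genes had an r above 0.95 with Mfn1.

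**Figure D2:**
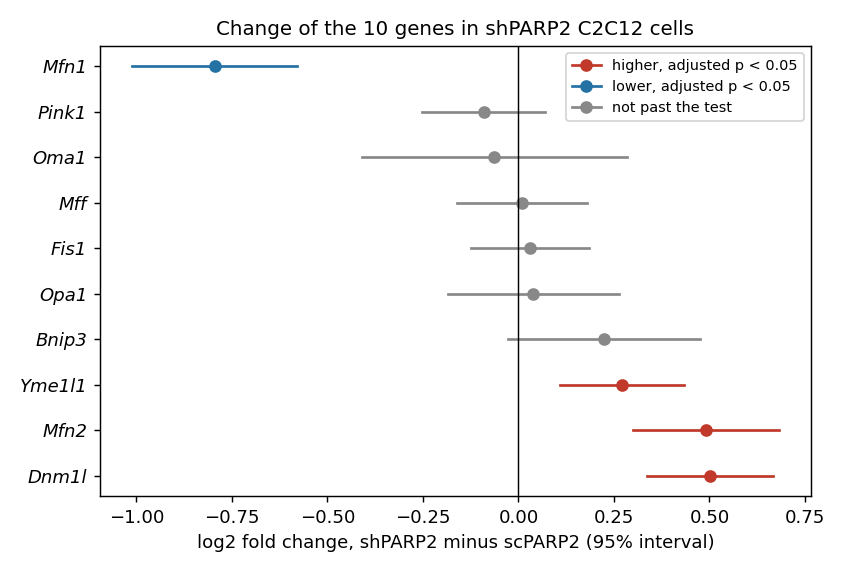
Change of the 10 genes in shPARP2 relative to scPARP2 cells on the log2 scale (horizontal axis), in order of size. Points are fitted differences of 3 arrays against 3 and lines are 95% confidence intervals; the interval of Mfn1 (blue, -1.01 to -0.58) lies below 0, those of Yme1l1, Mfn2 and Dnm1l (red) lie above 0, and the 6 grey intervals include 0.

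Of the inner membrane genes, the protease gene Yme1l1 rose, while Opa1 and Oma1 did not pass the test. Opa1 read 9.95, 10.23 and 10.20 in shPARP2 cells, against 10.14, 10.05 and 10.08 in scPARP2 cells, and the lines overlapped. Its log2 fold change was 0.04 (95% confidence interval -0.19 to 0.26, adjusted p = 0.847 from limma). The array does not tell the long and short forms of the OPA1 protein apart, since they arise by cleavage of the protein. Oma1 encodes a stress-activated protease that cleaves OPA1, and read 7.25, 7.72 and 7.25 in shPARP2 cells, against 7.44, 7.58 and 7.39 in scPARP2 cells. One shPARP2 array, replicate 2, was above all scPARP2 arrays and the other shPARP2 arrays were below them. Oma1 had the widest interval among the 10 genes (-0.41 to 0.28, log2 fold change -0.06, adjusted p = 0.837 from limma).

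Yme1l1, the i-AAA protease that processes OPA1 under basal conditions, read 11.26, 11.29 and 11.41 in shPARP2 cells, against 11.03, 11.06 and 11.05 in scPARP2 cells. The lines did not overlap. Its log2 fold change was 0.27 (standard error 0.07, 95% confidence interval 0.11 to 0.43, adjusted p = 0.0362 from limma). This call ended without shPARP2 replicate 1 or 3 (adjusted p = 0.0568 and 0.0565) and without scPARP2 replicate 1, 2 or 3 (0.137, 0.120 and 0.137). It also ended with the replicate block (adjusted p = 0.0954 from limma). The log2 fold change nevertheless stayed between 0.23 and 0.30 under the 15 alternatives tried.

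Among the fission genes, the motor Dnm1l rose, and the receptor genes Fis1 and Mff did not pass the test. Dnm1l read 11.28, 11.32 and 11.43 in shPARP2 cells, against 10.84, 10.85 and 10.84 in scPARP2 cells. The scPARP2 arrays lay within 0.0151 of each other, and every shPARP2 array was above them. The log2 fold change was 0.50 (standard error 0.07, 95% confidence interval 0.34 to 0.67, adjusted p = 0.00398 from limma). Fis1, an outer membrane adaptor, read 11.03, 11.13 and 11.05 in shPARP2 cells, against 11.01, 11.08 and 11.03 in scPARP2 cells. These values overlapped, and the log2 fold change was 0.03 (95% confidence interval -0.13 to 0.18, adjusted p = 0.828 from limma). Mff, the mitochondrial fission factor that recruits DRP1, read 11.25, 11.22 and 11.39 in shPARP2 cells, against 11.28, 11.28 and 11.28 in scPARP2 cells. The scPARP2 values fell inside the range of the shPARP2 values, and the log2 fold change was 0.01 (95% confidence interval -0.16 to 0.18, adjusted p = 0.962 from limma). A change of Fis1 or Mff as large as that of Dnm1l is outside these intervals.

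Neither of the mitophagy genes passed the test. Pink1 encodes the kinase that accumulates on depolarized mitochondria and starts their removal. It read 9.43, 9.52 and 9.58 in shPARP2 cells, against 9.61, 9.60 and 9.61 in scPARP2 cells. Every shPARP2 array was lower, but the gap was small, and the lines did not overlap for 42.1% of all genes. The log2 fold change of Pink1 was -0.09 (95% confidence interval -0.25 to 0.07, adjusted p = 0.452 from limma). Bnip3, an outer membrane receptor that binds LC3 and is induced by hypoxia, read 10.63, 10.79 and 10.55 in shPARP2 cells, against 10.59, 10.30 and 10.41 in scPARP2 cells. The lines overlapped, with a log2 fold change of 0.22 (95% confidence interval -0.03 to 0.48, adjusted p = 0.215 from limma). Bnip3 was the 1 gene of the 10 with a second single-gene probe set, which was dimmer and had a log2 fold change of 0.12 (95% confidence interval -0.11 to 0.35, adjusted p = 0.488 from limma).

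Mitochondria are carried along microtubules by kinesin motors that are linked to the organelle by the TRAK adaptors and the Miro GTPases, and most genes listed for this transport passed the test in shPARP2 cells. Of 8 listed genes 7 were measured, of which 6 rose and 0 fell, against the 12.4% of all genes that were higher. Their median log2 fold change was 0.45, and the gene that did not pass was Myo19 (0.05, adjusted p = 0.742 from limma). Kif5b, the heavy chain of conventional kinesin, read 12.27, 12.30 and 12.36 in shPARP2 cells, against 11.60, 11.54 and 11.56 in scPARP2 cells. Its lines stood apart by far more than their spread (log2 fold change 0.74, standard error 0.06, adjusted p = 0.000762 from limma). The adaptors Trak1 and Trak2 had log2 fold changes of 0.65 and 0.63 (adjusted p = 0.00124 and 0.00140 from limma). Rhot1, which encodes the GTPase Miro1 that binds the TRAK adaptors and is also bound by the mitofusins, had one of 0.26 (adjusted p = 0.0481 from limma). Its call ended without any one array (adjusted p = 0.0588 to 0.178) and with quantile normalization (0.0582), centring (0.0522) or the replicate block (0.105). The number of transport genes that rose was 3 without scPARP2 replicate 1 or 3, and 4 without shPARP2 replicate 1 or 3 or scPARP2 replicate 2. It was also 4 with quantile normalization, after centring and with the replicate block, and 3 at an adjusted p under 0.01 or with a change of at least 1.5-fold. Over all probe sets, 3345 rose as reported and 1842 to 1961 without a scPARP2 replicate. This number was 2804 and 3165 without shPARP2 replicate 1 and 3, and 1736 and 1458 at the stricter p and at 1.5-fold. With quantile normalization, centring and the replicate block it was 3485, 3320 and 2455.

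**Figure D3:**
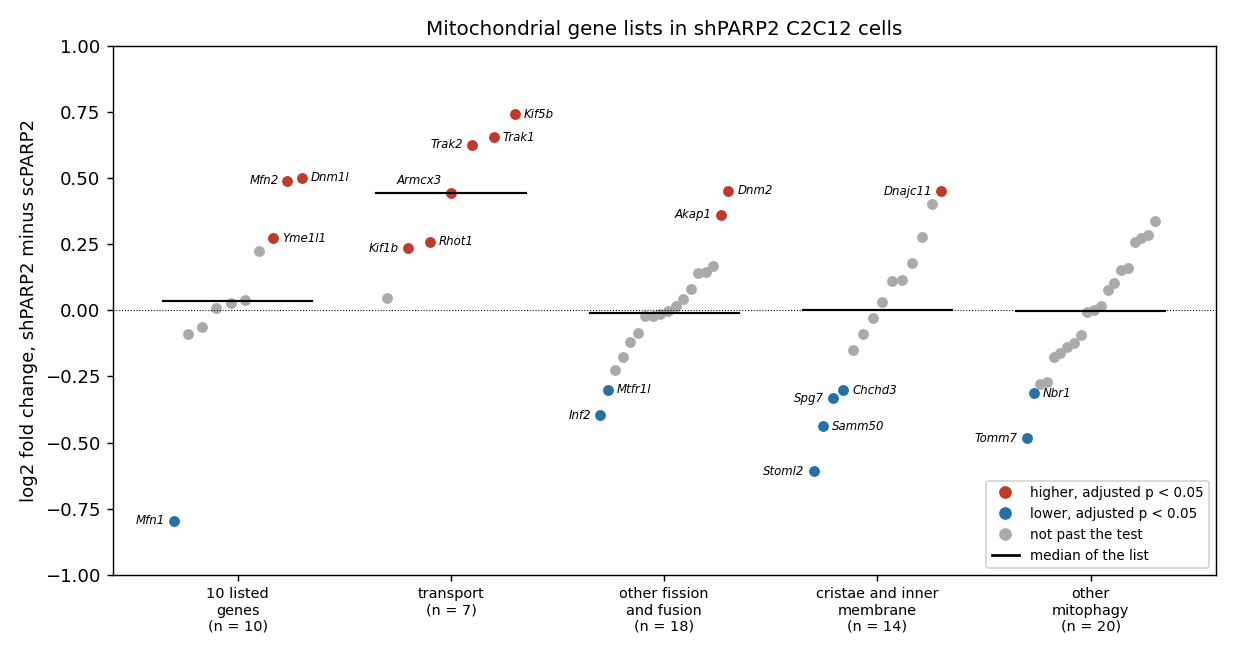
Change in shPARP2 relative to scPARP2 cells on the log2 scale (vertical axis) for the 10 genes and for the measured genes of 4 further mitochondrial lists; each point is a gene, sorted within its list, and black lines are medians. Of the 7 transport genes 6 are red (higher, adjusted p under 0.05), whereas the medians of the other lists lie near 0.

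Other fission and fusion genes moved in both directions. Of 18 measured genes 2 rose, 2 fell and 14 did not pass the test, which is near the 12.4% and 11.6% of all genes. Their median log2 fold change was -0.01. Dnm2, the dynamin best known for cutting endocytic vesicles, read 11.90, 11.89 and 11.91 in shPARP2 cells, against 11.47, 11.46 and 11.40 in scPARP2 cells. All shPARP2 arrays were higher (log2 fold change 0.45, standard error 0.06, adjusted p = 0.00364 from limma). Akap1, an outer membrane anchor of protein kinase A, which phosphorylates and restrains DRP1, rose by a log2 fold change of 0.36 (adjusted p = 0.0134 from limma). The call of Akap1 ended without any one of the scPARP2 replicates (adjusted p = 0.0553 to 0.0712) and with the replicate block (0.0525). Inf2, a formin that polymerizes actin at fission sites, fell, with a log2 fold change of -0.40 (adjusted p = 0.00904 from limma). Mief1 and Mief2, which encode further DRP1 receptors, had log2 fold changes of -0.02 and -0.18 and did not pass the test (adjusted p = 0.894 and 0.225 from limma).

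In the list of cristae and inner membrane genes, 4 of 14 measured genes fell and 1 rose, where 11.6% of all genes fell and 12.4% rose. Stoml2, which encodes a stomatin-like scaffold of the inner membrane that binds prohibitins and takes part in stress-induced fusion, read 9.01, 9.11 and 9.03 in shPARP2 cells, against 9.69, 9.65 and 9.63 in scPARP2 cells. The arrays of the lines did not overlap (log2 fold change -0.61, standard error 0.06, adjusted p = 0.00167 from limma). Samm50, the core of the machinery that inserts barrel proteins into the outer membrane, fell with a log2 fold change of -0.44 (adjusted p = 0.00544 from limma). Dnajc11, an outer membrane protein that associates with SAMM50, rose with one of 0.45 (adjusted p = 0.00493 from limma). Of the genes of the MICOS complex, which shapes the cristae junctions, Chchd3 fell (-0.30, adjusted p = 0.0225 from limma) and Immt did not pass the test (0.11, adjusted p = 0.345 from limma). The call of Chchd3 ended without shPARP2 replicate 1 (adjusted p = 0.0634) and without any one of the scPARP2 replicates (0.0807 to 0.110). It also ended after centring (0.0635) and with the replicate block (0.0766).

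Among 20 further mitophagy genes with a value, 0 rose, 2 fell and 18 were not past the test, against backgrounds of 12.4% higher and 11.6% lower of all genes. Tomm7, a small subunit of the import pore that is needed to hold PINK1 on the outer membrane, read 9.85, 9.91 and 9.57 in shPARP2 cells, against 10.25, 10.29 and 10.25 in scPARP2 cells. The lines were separate (log2 fold change -0.48, standard error 0.10, adjusted p = 0.0197 from limma), but the call ended without any one of the scPARP2 replicates (adjusted p = 0.0711 to 0.0778) and after centring (0.0531). The autophagy receptor Nbr1 had a log2 fold change of -0.31 (adjusted p = 0.0215 from limma). This call also ended without any one of the scPARP2 replicates (0.0780 to 0.103), without shPARP2 replicate 1 (0.0584) and with the replicate block (0.0689). Bnip3l, the paralog of Bnip3 that clears mitochondria during red cell maturation, had a log2 fold change of 0.02 (adjusted p = 0.912 from limma).

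Since Bnip3 is a target of the hypoxia-inducible factor, other hypoxia targets were read beside it. Of 13 genes 5 rose, 1 fell and 7 did not pass the test, beside 12.4% higher and 11.6% lower over all genes. Pdk1, a kinase that shuts off pyruvate dehydrogenase, and Car9, a carbonic anhydrase of the cell surface, had log2 fold changes of 0.90 and 0.71 (adjusted p = 0.0211 and 0.00115 from limma). The call of Pdk1 ended without shPARP2 replicate 1 or any one of the scPARP2 replicates (adjusted p = 0.0584 to 0.0754). Adm, which encodes the peptide adrenomedullin, fell, with a log2 fold change of -1.08 (adjusted p = 0.000562 from limma). Of the 13 changes 10 were positive and 3 negative, with a median log2 fold change of 0.14. Over all 19938 genes 8945 changes were positive and 10993 negative, with a median of -0.02. Hif1a, which encodes a subunit of the factor itself, is among the 13 and did not pass the test (adjusted p = 0.334 from limma).

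The arrays carried the markers of myoblasts, and these differed between the lines as well. Of 8 measured myoblast genes 6 rose in shPARP2 cells (12.4% of all genes), among them Ncam1 and Myf5 with log2 fold changes of 1.63 and 1.13, and the mean level of the list lay between 11.53 and 11.86 on the shPARP2 arrays and between 11.04 and 11.09 on the scPARP2 arrays. Myod1, by contrast, spread from 8.89 to 10.19 on the shPARP2 arrays and from 9.79 to 9.85 on the scPARP2 arrays. Of 17 markers of leukocytes, epithelial and endothelial cells and adipocytes, Cd68 fell (log2 fold change -0.72) and 0 rose by the call. Over all genes 11.6% fell and 12.4% rose, so few calls would be found among 17 genes at these shares. Lyz2, a leukocyte marker like Cd68, was higher on every shPARP2 array but did not pass the test (log2 fold change 0.67, adjusted p = 0.0565 from limma). Epcam (epithelial) and Fabp4 (adipocyte) had log2 fold changes of -0.11 and -0.19 and did not pass the test (adjusted p = 0.410 and 0.292 from limma). The mean levels of these markers over the 6 arrays lay between 5.10 and 7.95. The part of the myoblast genes in the changes of the mitochondrial genes was not tested.

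The calls of Mfn1, Dnm1l and Mfn2 held with other scaling, variance models and filters and with each array left out. Over these alternatives, the highest adjusted p was 0.0147 for Mfn1, 0.0284 for Dnm1l and 0.0430 for Mfn2, each from leaving out a scPARP2 array. With a change of at least 1.5-fold required in addition, Mfn1 was the 1 gene of the 10 that remained called. The log2 fold change of Mfn1 ran from -0.87 to -0.72, that of Dnm1l from 0.46 to 0.53 and that of Mfn2 from 0.44 to 0.55.

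**Figure D4:**
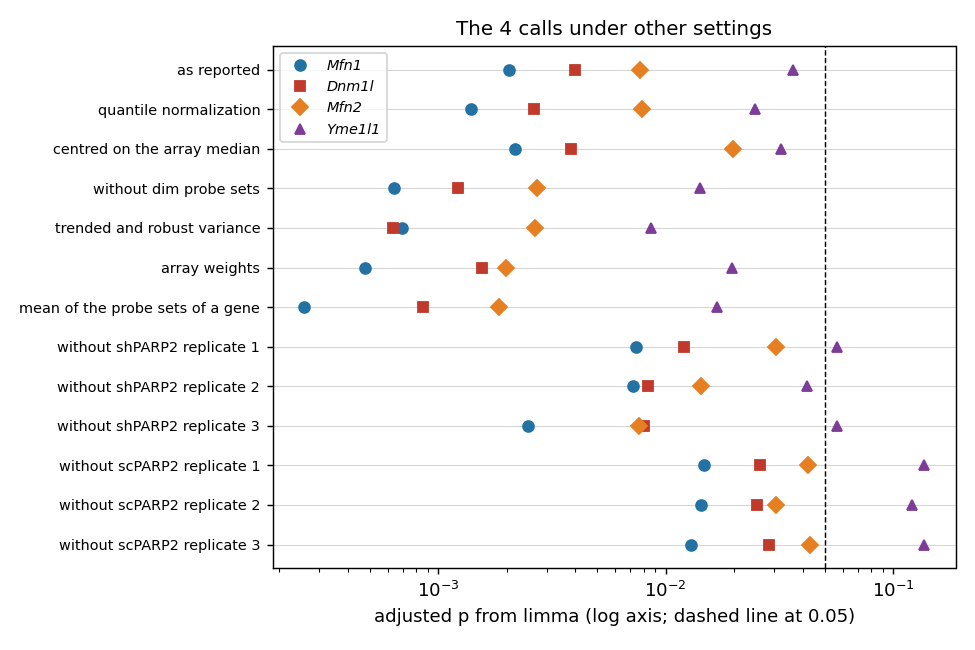
Adjusted p from limma (horizontal log axis) for the 4 genes that passed the test, as reported and under other settings (rows); the dashed line marks 0.05. The points of Mfn1, Dnm1l and Mfn2 stay left of the line, and those of Yme1l1 (triangles) cross it in 5 of the settings plotted, each with an array left out. The stricter thresholds and the replicate block are not plotted, and with the block Yme1l1 did not pass either (adjusted p = 0.0954 from limma).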

How the data were processed

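Total RNA of 3 shPARP2 and 3 scPARP2 C2C12 samples had been hybridized to Affymetrix mouse gene arrays, 1 sample per array. The deposited values are log2 expression per probe set and had been computed with RMA, per the labels; its software version and array library are not given in the sources. RMA scales the arrays to each other, so a shift shared by all genes would not be seen. An array gives no read depth; the 3 arrays per line limit the precision. Genes were named from the platform annotation and updated through the RefSeq gene table: 21789 probe sets name 1 gene, 1621 several and 12146 none.

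As in the study's methods, a linear model with empirical Bayes moderation was fitted (limma 3.58.1, R 4.3.3; no covariate), with Benjamini-Hochberg correction across the array. A gene passed at an adjusted p under 0.05. Standard errors are moderated, and confidence intervals are at 95%. The calculation was tested on simulated data. Motifs were searched in the 250 bases before the RefSeq start site nearest the 5′ end of each gene. Figures were drawn with matplotlib 3.10.9.

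The members and lists were chosen with earlier results of these data known. Named beside the 10 genes were Parp2, the 3 genes most like Mfn1 and up to 3 genes per list with the largest change past the test, or the 1 with the smallest p. Myo19, Rhot1, Mief1, Mief2, Chchd3, Immt, Bnip3l and Myod1 were added for their known roles after their values were seen. Alternatives were quantile normalization, centring, no dim probe sets (mean under the 40th percentile), array weights, a variance with trend and robust estimation, the replicate block, averaged probe sets per gene, each array left out, an adjusted p under 0.01 and a change of at least 1.5-fold.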

Additional observations from a re-analysis of the deposited data

How the results depend on the processing

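Under the 15 alternatives, 133 of 150 values of the 10 genes kept their direction and their side of the threshold, 10 lost the call and 7, in genes that had not passed, changed sign. Part of this was fixed beforehand. Without dim probe sets, with the trended variance, with the replicate block and at the stricter thresholds, the log2 fold changes are those reported and cannot change sign. At the stricter thresholds no gene can gain a call. With array weights the log2 fold changes of Opa1 and Mff were -0.063 and -0.0077. With each array left out, that of Oma1 ran from -0.22 to 0.017, that of Opa1 from -0.014 to 0.13, that of Fis1 from -8.3e-05 to 0.050 and that of Mff from -0.043 to 0.042. Of the 10 genes, 2 to 3 were higher and 1 lower when each array was left out, and 0 were higher with a change of at least 1.5-fold. Over all probe sets, 3345 were higher and 3249 lower as reported. These numbers were 1842 to 3449 and 1761 to 3782 with each array left out, 1736 and 1589 at an adjusted p under 0.01, and 1458 and 1327 at 1.5-fold, and 4941 were lower with array weights. In the 4 wider mitochondrial lists, 9 of 59 genes were higher and 8 lower. These numbers were 5 to 8 and 3 to 10 with each array left out, 5 and 3 at an adjusted p under 0.01, and 3 and 1 at 1.5-fold, and 4 were lower after centring. In the wider lists 13 were higher and 11 lower without dim probe sets, and likewise with averaged probe sets per gene. Among the fits with an array left out, the highest numbers lower over all probe sets and in the wider lists came without shPARP2 replicate 2. The causes of these differences were not tested. The median log2 fold change of all genes was -0.0101 with quantile normalization and -0.0039 after centring, against -0.0238 as reported.

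The lines share replicate numbers, but deviations from the line means correlated between same-numbered arrays at -0.051 to 0.092, so the numbers were not taken as pairs. With the replicate block 2 of the 10 genes were higher and 1 lower, since Yme1l1 did not pass (adjusted p = 0.0954), and in the wider lists 6 were higher and 4 lower. The signal of Oma1, whose interval was the widest, lay above that of 55.3% of all probe sets; no separate background level was used.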

Other observations

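The genes listed for mitochondrial import and the outer membrane pores were mixed in shPARP2 cells. The list also holds Hspd1 (a matrix chaperonin), Cs (citrate synthase) and Tfam (a mitochondrial transcription factor), which did not pass the test. Of 14 measured genes 4 rose, 2 fell and 8 did not pass the test, where 12.4% of all genes rose and 11.6% fell. The median log2 fold change was 0.02. Tomm20, a receptor of the import pore that is widely used as a mitochondrial marker, averaged 11.08 ± 0.12 in shPARP2 and 11.80 ± 0.01 in scPARP2 cells (SD, n = 3 arrays each). The lines did not overlap (log2 fold change -0.72, adjusted p = 0.00206 from limma). Tomm22, which encodes another receptor of the pore, had a log2 fold change of -0.33 (adjusted p = 0.0462 from limma). This call ended without any array but shPARP2 replicate 2 (0.0804 to 0.160), after centring (0.129) and with the replicate block (0.103). Vdac1, the main channel of the outer membrane, rose, with means of 12.36 ± 0.01 in shPARP2 and 12.03 ± 0.03 in scPARP2 cells (SD, n = 3 arrays each). Its log2 fold change was 0.33 (adjusted p = 0.0112 from limma). The call of Vdac1 ended without any one of the scPARP2 replicates (adjusted p = 0.0553 to 0.0645) and with the replicate block (0.0522). Genes of the same outer membrane thus changed in both directions, as Mfn1 and Mfn2 did.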
